A study of Mus musculus with 9 samples.

Results

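Muscle breaks down glucose to lactate or pyruvate by glycolysis and stores it as glycogen, and 33 genes of these routes are described here in mouse gastrocnemius, the large calf muscle: glucose and lactate transporters, the glycolytic enzymes, and the enzymes of glycogen synthesis and breakdown. The genes were chosen by symbol. Of the 33, 32 had at least 1 sequence record above 0 in all 9 libraries, out of 15372 genes tested, and aldolase C (Aldoc) had no row. The measured genes were 12 muscle forms, 9 ubiquitous or other forms, and 11 genes placed in neither kind, called single forms here. The split is not strictly by pairs. Pfkfb1 is among the 11 although its sister Pfkfb3 is an other form, and the muscle forms Gys1, Phka1, Phkg1 and Slc16a3 have no sister among the 33. There were 3 groups with 3 libraries each. The control group was wildtype with vehicle, a second was mdx with vehicle, and the last was mdx treated with GTx-026, 10 mg/kg by subcutaneous injection. All 9 carry the strain label C57BL/6, mdx included. The mdx mouse lacks full-length dystrophin through a mutation of Dmd and serves to model Duchenne muscular dystrophy. By the study's title, GTx-026 is one of the androgen receptor agonists. Age and sex are not given in the sources used here. No label links a library to an animal, and p-values therefore measure only how far these libraries spread, which may be technical.

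Many steps of glycolysis are carried out by sister enzymes encoded by separate genes. For some steps a form is made mainly in mature striated muscle, where fast fibres rely on glycogen and glycolysis for short bursts of work. Another form is made in most cell types, including the immune, connective tissue and regenerating cells of damaged muscle. The labels are broad, and a gene listed as a muscle form need not be particular to muscle. Slc2a4, a muscle form here, also serves fat, and Ldhb, an other form, is the subunit of heart and oxidative fibres. The comparison of muscle forms with ubiquitous forms asks whether dystrophic muscle, or dystrophic muscle under GTx-026, carried a different balance of the 2 kinds of transcript.

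The values are CPM (counts per M, or mega, reads listed in a library, after rescaling), summed over a gene's sequence records. The deposited values were whole multiples of 1 step per library. With a step counted as 1 read, they summed to between 25.1 M and 38.0 M in a library. Records of a gene can share reads, so these sums can count a read more than once. Among the libraries, mdx vehicle 1 was the least like the others: its median correlation with the other 8 over all genes was 0.948, where theirs lay between 0.967 and 0.977, and its rescaling factor of 1.30 was the highest. Dmd lay between 41.4 and 60.0 CPM in wildtype and between 11.4 and 21.7 CPM in the 6 mdx libraries. The fast-fibre markers of gastrocnemius were abundant in every library, with sums over 12 genes of 121100 to 217300 CPM. Sums of 13 measured macrophage markers were 57.6 to 155 CPM for wildtype, 162 to 1180 CPM for mdx vehicle and 443 to 700 CPM in mdx GTx-026 libraries, with the F4/80 gene Adgre1 without a row. In bulk muscle, fewer cells of a type and less RNA per cell cannot be told apart.

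The gap between muscle and ubiquitous forms can be seen beside their promoters. Levels were compared per kb, from a gene's highest record divided by the length of its longest coding transcript. For these per-kb values CPM was taken over the highest records alone, a smaller total, so their scale is higher than that of the summed CPM. In wildtype the muscle glycogen phosphorylase Pygm stood 759 times above its sister Pygb, and the muscle phosphoglycerate mutase Pgam2 stood 164 times above Pgam1. The 250 bases before the RefSeq start of these 4 genes (GRCm38.p6) are shown because Pygm to Pygb was the widest gap of the measured pairs and because the Pgam2 window holds both motifs described next. The latter pair was picked after its window was seen. Pfkm stood 409 times above Pfkp and Hk2 180 times above Hk1 in wildtype, and these pairs are described without their sequences. A highest record leaves out a gene's other records, and Hk1 had 8 records where Hk2 had 1. Summed over records, the wildtype means were 305 CPM for Hk2 and 8.05 CPM for Hk1, a smaller gap than 180 times. Capitals mark CAGCTG, one form of the E-box that muscle transcription factors of the MyoD family are known to bind, and CTANNNNTA, a loose form of the element known for MEF2 factors. Both were searched on both strands, and no 2 matches overlap in the sequences shown. The Pygm window is chr19:6384158-6384407 on the plus strand, the Pygb window chr2:150786546-150786795 on the plus strand, the Pgam2 window chr11:5803797-5804046 on the minus strand, and the Pgam1 window chr19:41911621-41911870 on the plus strand.
Pygm: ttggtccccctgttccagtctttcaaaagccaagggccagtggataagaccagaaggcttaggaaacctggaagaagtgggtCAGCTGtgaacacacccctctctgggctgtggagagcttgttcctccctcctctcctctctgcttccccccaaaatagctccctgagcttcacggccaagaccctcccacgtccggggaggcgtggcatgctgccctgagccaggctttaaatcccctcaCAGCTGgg
Pygb: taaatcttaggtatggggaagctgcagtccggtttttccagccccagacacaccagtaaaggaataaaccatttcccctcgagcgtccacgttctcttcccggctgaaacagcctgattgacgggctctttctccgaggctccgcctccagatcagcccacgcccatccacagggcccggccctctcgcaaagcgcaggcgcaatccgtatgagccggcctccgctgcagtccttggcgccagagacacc
Pgam2: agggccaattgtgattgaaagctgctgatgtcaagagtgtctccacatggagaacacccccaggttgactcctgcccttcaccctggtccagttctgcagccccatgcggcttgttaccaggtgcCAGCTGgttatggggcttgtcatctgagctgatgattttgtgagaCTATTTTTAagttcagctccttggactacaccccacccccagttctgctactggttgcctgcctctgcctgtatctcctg
Pgam1: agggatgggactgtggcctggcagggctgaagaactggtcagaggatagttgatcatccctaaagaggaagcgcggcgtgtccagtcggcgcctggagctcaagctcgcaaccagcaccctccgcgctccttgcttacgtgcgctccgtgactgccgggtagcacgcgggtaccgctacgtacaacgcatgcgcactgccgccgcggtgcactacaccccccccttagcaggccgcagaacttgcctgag

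The Pygm window held 2 CAGCTG matches and 4 CpG, and the Pgam2 window 1 match to each motif and 1 CpG. The Pygb window held no match and 17 CpG, and the Pgam1 window no match and 22 CpG. The muscle forms Hk2, with 1 window of 25 CpG, and Pfkm, with 4 windows of 2 to 10 CpG, held no match to either motif. Over all 32851 RefSeq mouse promoters, 13% held CAGCTG and 19% held CTANNNNTA in such a window, with a median of 6 CpG. The windows of the muscle forms, 17 promoters of 11 genes, held CAGCTG in 23.5% and CTANNNNTA in 17.6%, with a median of 9 CpG. The windows of the ubiquitous or other forms, 15 promoters of 10 genes, held CAGCTG in 0 and CTANNNNTA in 13.3%, with a median of 14 CpG. CAGCTG was not particular to muscle forms, as the single forms Gpi1, Pkm, Ugp2 and Pfkfb1 each had a window with it. Over all 47 promoters of 31 genes of the set, 17.0% held CAGCTG and 17.0% CTANNNNTA, with a median of 13 CpG. A match describes the letters of a window and does not show that a factor binds there.

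Most genes of the set did not pass the test in any comparison. In mdx vehicle against wildtype vehicle, none of the 32 genes passed an adjusted p of 0.05 in limma, and the percent of all tested genes called in that comparison was 0.338. In mdx GTx-026 against mdx vehicle none passed, where the percent of all genes called was 0.013, and in mdx GTx-026 against wildtype none passed, where it was 1.48. With both mdx groups together against wildtype, 1 gene passed and was lower, the phosphofructokinase-2 gene Pfkfb3, where the percent called over all genes was 1.59 and the percent called lower was 0.618. At an unadjusted p under 0.05, 1 gene was higher and 2 were lower in mdx vehicle against wildtype, where the percent of all genes at that p was 12.7. None of the 32 reached an unadjusted p under 0.05 in mdx GTx-026 against mdx vehicle, where the percent over all genes was 3.17. There were 4 higher and 1 lower in mdx GTx-026 against wildtype (12.5 percent of all genes) and 2 higher and 2 lower in both mdx groups against wildtype (15.5 percent of all genes). The genes whose fold changes are given one by one below were picked out after their values were seen.

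By direction alone, 25 of the 32 log2 fold changes were below 0 in mdx vehicle against wildtype, with a median of -0.17, beside 51.1 percent of all genes above 0 and a median of 0.01. The 12 muscle forms had 11 values below 0 and a median of -0.24, from -0.43 in Pygm to 0.26 in the lactate exporter Slc16a3. All 11 single forms were below 0 too, with a median of -0.17, so this direction was not particular to the muscle forms. The 9 ubiquitous or other forms had 6 values above 0 and a median of 0.33. These counts rest on the mdx vehicle library 1 and on the scaling, and those of the ubiquitous or other forms also on 1 Eno1 record. Without that library 18 of the 32 values were below 0, the median was -0.04, and the medians of the muscle and ubiquitous forms were -0.08 and 0.02. Under the authors' deposited scaling, which raised the median log2 fold change of all genes to 0.15 in this comparison, 15 of the 32 values were below 0 and 17 above, and 8 of the 12 muscle forms were below 0. Leaving out the third of the Eno1 records, described below, left 5 of the ubiquitous or other forms above 0 and 4 below. Their median was then 0.06.

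In mdx GTx-026 against mdx vehicle, 24 of the 32 values were above 0 with a median of 0.13, beside 51.1 percent of all genes above 0. Of the 12 muscle forms 10 were above 0, and of the 11 single forms 9. Without the mdx vehicle library 1, 19 of the values were above 0, the muscle forms had 5 above 0 and 6 below 0, and their median was -0.01. Without the mdx GTx-026 library 1, 18 of the values and 5 of the muscle forms were above 0. The untreated mdx libraries enter both this comparison and the one before it.

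**Figure D1:**
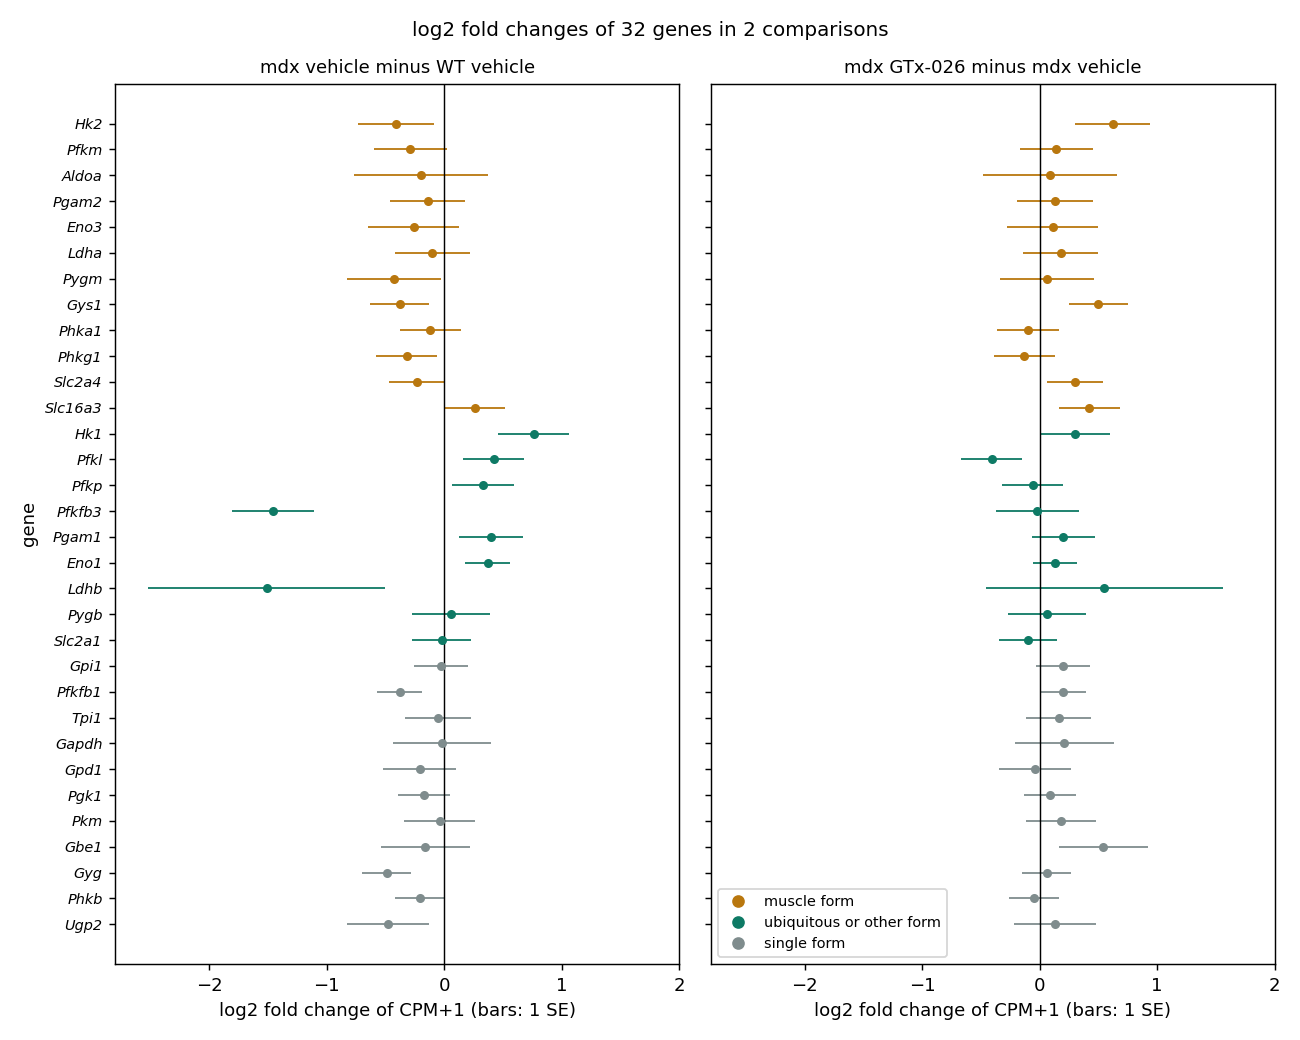
Log2 fold changes (x axis, log2 of CPM plus 1; bars are 1 SE of the limma fit) of the 32 measured genes (y axis) in mdx vehicle against wildtype vehicle, left, and mdx GTx-026 against mdx vehicle, right, coloured by form. In the left panel 11 of 12 muscle forms and all 11 single forms lie below 0. Of the 9 ubiquitous or other forms 6 lie above 0, and no gene is past an adjusted p of 0.05.

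Single libraries differed more than groups did. The median deviation of the 12 muscle forms from their own 9-library mean, on the log2 scale, was -0.09, 0.10 and 0.31 in the wildtype libraries 1 to 3. It was -0.41, 0.19 and -0.15 in the mdx vehicle libraries and 0.34, 0.03 and -0.34 in the mdx GTx-026 libraries. The lowest and the highest median both came from mdx muscle, and the 3 groups overlapped. The fast-fibre markers had medians of 0.04, 0.16 and 0.34 in wildtype, -0.29, 0.08 and -0.07 in mdx vehicle and 0.37, -0.05 and -0.44 in mdx GTx-026, with the same sign as the muscle forms in 7 of the 9 libraries. The part of fibre makeup in the group values was not tested. In the mdx vehicle library 1, 13 of the 32 genes had their lowest value of the 9 libraries. In the mdx GTx-026 library 1, 11 genes had their highest value, among them aldolase Aldoa, enolase Eno3 and Pygm. In the mdx GTx-026 library 3, 11 genes had their lowest value, again with Aldoa, Eno3 and Pygm, while the hexokinase Hk2, the glycogen synthase Gys1, the glycogen branching enzyme Gbe1 and Pgam1 had their highest.

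**Figure D2:**
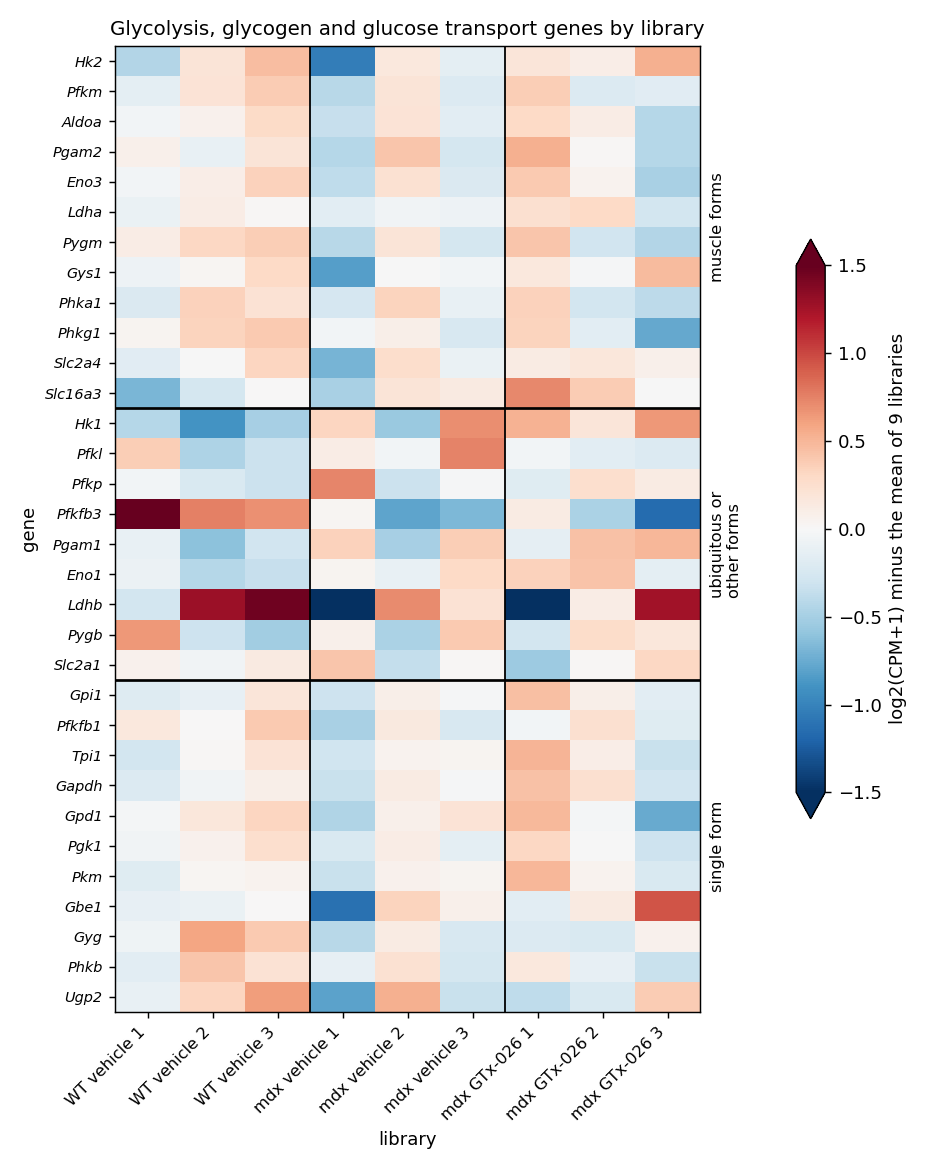
Deviation of each gene (rows) from its mean over the 9 libraries (columns), as log2(CPM + 1), blue below and red above the mean, with muscle forms above, ubiquitous or other forms in the middle and single forms below. The mdx vehicle library 1 is blue over most muscle and single forms, the mdx GTx-026 library 1 is red, and Pfkfb3 and Ldhb vary most.

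Glucose enters the resting fibre through ubiquitous GLUT1 (Slc2a1) and, on insulin or contraction, through the muscle and fat transporter GLUT4 (Slc2a4). Slc2a4 was at 401, 449 and 565 CPM in the wildtype libraries, 277, 539 and 421 CPM in mdx vehicle and 491, 508 and 475 CPM in mdx GTx-026 libraries. The mdx vehicle library 1 was the lowest, and all groups overlapped. Slc2a1 was at 9.08, 8.23 and 9.57 CPM in the wildtype libraries, 11.8, 6.52 and 8.69 CPM in mdx vehicle and 5.58, 8.71 and 10.9 CPM in mdx GTx-026 libraries, with overlap throughout. Per kb and by the highest record alone, Slc2a4 stood 18.1 times above Slc2a1 in wildtype. Slc2a4 had 9 records and Slc2a1 had 2, and their summed wildtype means were 472 and 8.96 CPM.

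Hexokinases trap glucose in the cell as glucose 6-phosphate. Hk2, the form of insulin-responsive muscle, was at 207, 321 and 388 CPM in the wildtype libraries, 137, 313 and 254 CPM in mdx vehicle and 319, 301 and 409 CPM in mdx GTx-026 libraries. All groups overlapped, and the lowest value was again that of mdx vehicle library 1. The log2 fold change of Hk2 was -0.41 with an SE of 0.32 in mdx vehicle against wildtype (adjusted p = 0.611) and 0.62 with an SE of 0.32 in mdx GTx-026 against mdx vehicle (adjusted p = 1.0). Hk1, the form of most cell types and of brain and red cells, was scarce. By highest record it was at 0.519 CPM per kb in wildtype against 93.3 CPM per kb for Hk2, a gap widened by the 8 records of Hk1 against 1 of Hk2. The summed level of Hk1 was 9.14, 6.32 and 8.69 CPM in the wildtype libraries, 16.1, 8.32 and 21.1 CPM in mdx vehicle and 18.6, 14.5 and 20.4 CPM in mdx GTx-026 libraries. All mdx GTx-026 libraries lay above all wildtype libraries, as was so for 11.5 percent of all genes, and the mdx vehicle library 2 lay within the wildtype range. The log2 fold change of Hk1 was 0.76 with an SE of 0.30 in mdx vehicle against wildtype (adjusted p = 0.349), 1.06 with an SE of 0.30 in mdx GTx-026 against wildtype (adjusted p = 0.143) and 0.91 with an SE of 0.26 for both mdx groups (adjusted p = 0.129). Leaving out the mdx vehicle library 2 gave Hk1 an adjusted p of 0.0397 in mdx GTx-026 against wildtype and 0.0229 for both mdx groups. In each of these comparisons it was the only 1 of 9 libraries whose removal let Hk1 pass. Over all 20 other settings Hk1 passed in 3 in mdx GTx-026 against wildtype, with an adjusted p from 0.0315 to 0.416. For both mdx groups it passed in 2 of 19, with an adjusted p from 0.0229 to 0.434. The mdx vehicle library 2 also had the lowest macrophage sum of the mdx libraries, 162 CPM beside 443 to 1180 CPM in the other 5, and the part of these cells in the Hk1 values was not tested.

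Phosphofructokinase commits sugar to glycolysis, and the bifunctional PFKFB enzymes make and degrade fructose 2,6-bisphosphate, its strongest known activator. Pfkfb3, the inducible form with high kinase activity, fell in mdx muscle. The gene lies at chr2:11471433-11554077 on the minus strand (GRCm38) and had 12 records. Its level was 437, 261 and 249 CPM in the wildtype libraries, 157, 88.7 and 95.9 CPM in mdx vehicle and 168, 111 and 68.4 CPM in mdx GTx-026 libraries. Every mdx library lay below every wildtype library, as was so in the lower direction for 4.27 percent of all genes, and both mdx groups overlapped each other. The mean was 316 ± 105 CPM in wildtype (SD, n = 3) and 115 ± 39.5 CPM over the mdx libraries (SD, n = 6), a 2.78-fold lower level on the log2(CPM + 1) scale. The log2 fold change for both mdx groups was -1.47 with an SE of 0.31, and the limma adjusted p of 0.04998 lay at the threshold. The value was -1.46 (adjusted p = 0.157) in mdx vehicle and -1.48 (adjusted p = 0.0835) in mdx GTx-026 against wildtype, and -0.02 with an SE of 0.35 in mdx GTx-026 against mdx vehicle (adjusted p = 1.0).

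Over 19 other settings the log2 fold change of Pfkfb3 for both mdx groups ran from -1.63 to -1.22 and its adjusted p from 0.0103 to 0.153, and it passed in 8. The call was lost without any 1 of the 3 wildtype libraries (adjusted p of 0.133, 0.146 and 0.153 without libraries 1, 2 and 3), without the mdx vehicle libraries 2 (0.064) or 3 (0.102) and without the mdx GTx-026 libraries 2 (0.103) or 3 (0.0749). The wildtype library 1, with the highest Pfkfb3, had an adipocyte marker sum of 894 CPM over 4 genes, beside 84.9 and 140 CPM in the other wildtype libraries. Without it the log2 fold change was -1.22. The mdx libraries with adipocyte sums of 483 and 543 CPM, mdx vehicle 3 and mdx GTx-026 2, had Pfkfb3 at 95.9 and 111 CPM. The part of adipocytes in the Pfkfb3 values was not tested.

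The other phosphofructokinase genes did not pass. Pfkfb1, the form known from liver and muscle, was at 43.4 to 57.3 CPM in wildtype and 30.5 to 51.3 CPM in the mdx libraries. The muscle subunit Pfkm was at 2852 to 4128 CPM in wildtype and 2377 to 4079 CPM in the mdx libraries. The liver subunit Pfkl was at 15.7, 8.37 and 9.38 CPM in the wildtype libraries, 13, 11.6 and 20.7 CPM in mdx vehicle and 11.6, 10.6 and 10.2 CPM in mdx GTx-026 libraries. The mdx GTx-026 libraries lay just below the lowest mdx vehicle library, as was so for 3.13 percent of all genes, with a log2 fold change of -0.41 and an SE of 0.26 (adjusted p = 1.0). The platelet subunit Pfkp ranged from 8.58 to 18.9 CPM, with its highest value in mdx vehicle library 1.

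**Figure D3:**
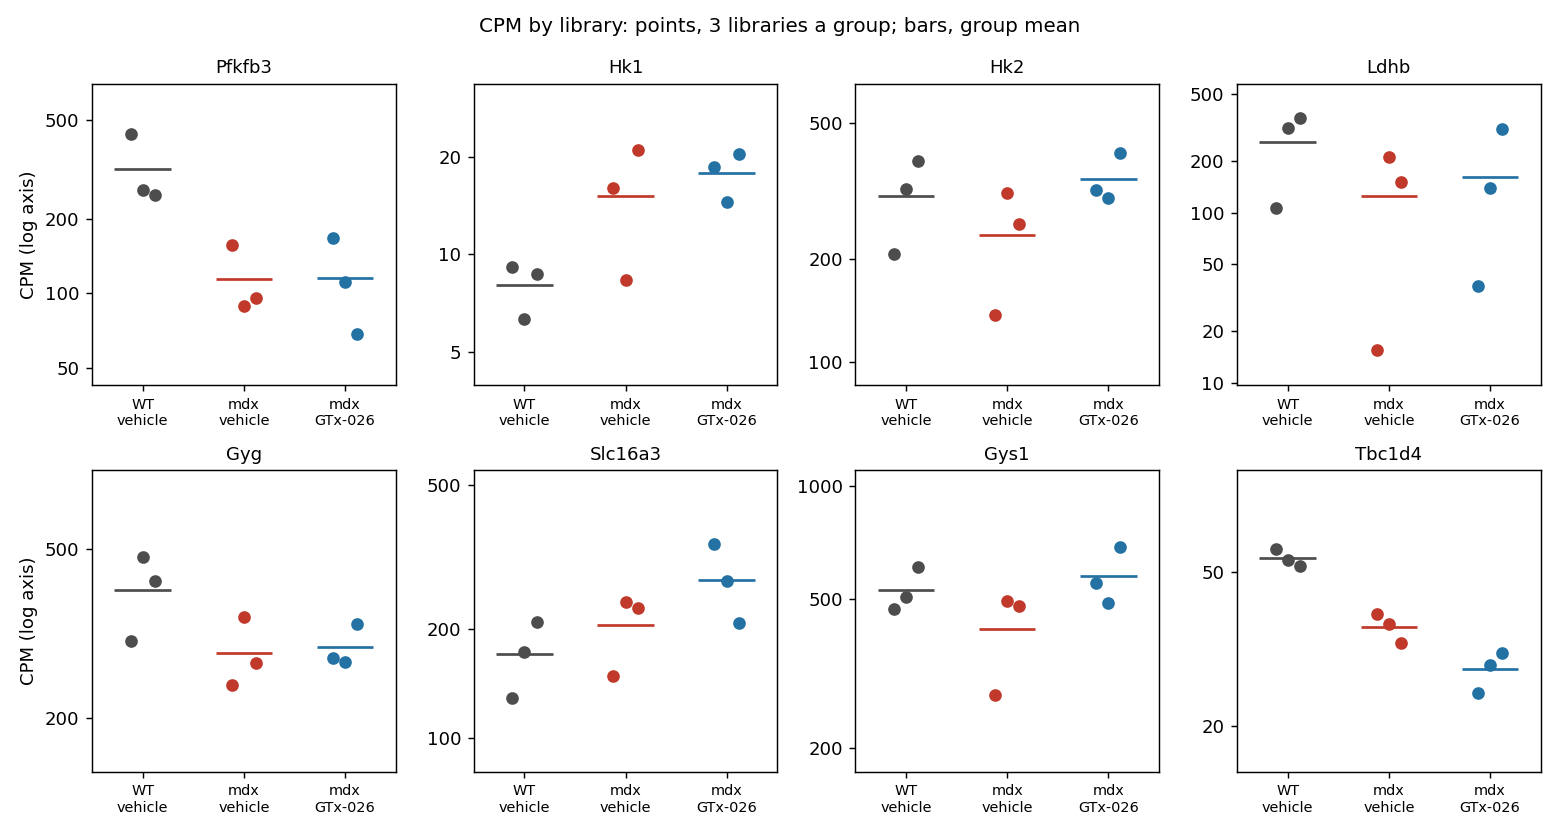
CPM (log axis) of 7 genes of the set and of Tbc1d4 in each library (points) with the mean of the 3 libraries of a group (bars). Pfkfb3 and Tbc1d4 show every mdx library below every wildtype library, Hk1 lies higher in all mdx GTx-026 libraries than in wildtype, and Ldhb spans 15.5 to 310 CPM among mdx libraries.

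Below phosphofructokinase, aldolase splits the sugar and the next enzymes carry the 3-carbon pieces to pyruvate. By highest record per kb, the most abundant of these in wildtype were Aldoa at 3610, Pgam2 at 3310, glyceraldehyde 3-phosphate dehydrogenase Gapdh at 2450 and triose phosphate isomerase Tpi1 at 2030 CPM per kb. That order depends on the records: Aldoa had 9, Eno3 had 7 and Gapdh had 5, while Pgam2 and Tpi1 had 1 each. None of Gpi1, Aldoa, Tpi1, Gapdh, Pgk1, Pgam2, Eno3 and Pkm passed the test in any comparison, and the highest of 9 libraries was 1.54 to 1.95 times the lowest in each of them. The placement of reads is uncertain for several, though it was not examined. Of the 50-base words of the longest Gapdh coding transcript 82.5%, and of those of Pgk1 68.0% and of Pkm 34.4%, also occur in transcripts of other genes. The records of Pkm were not assigned to its M1 and M2 splice forms. The glycerol 3-phosphate dehydrogenase Gpd1, which draws off triose phosphate, was at 630 to 804 CPM in wildtype and 381 to 903 CPM in the mdx libraries.

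Pgam1, the ubiquitous mutase, was at 24.9, 17.3 and 21.9 CPM in the wildtype libraries, 34.3, 18.7 and 34.9 CPM in mdx vehicle and 24.4, 36.7 and 38.3 CPM in mdx GTx-026 libraries. The mdx vehicle library 2 and the mdx GTx-026 library 1 lay within the wildtype range. For both mdx groups the log2 fold change was 0.50 with an SE of 0.23 (adjusted p = 0.337) and 0.60 with an SE of 0.27 in mdx GTx-026 against wildtype (adjusted p = 0.396). Of its 50-base words, 41.5% also occur in a transcript of Pgam1-ps2.

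The records of enolase 1 differed in direction within a single symbol. Eno1, the ubiquitous form, has 3 records, and the third rose in mdx muscle. The gene lies at chr4:150236721-150248879 on the plus strand (GRCm38). The third record was at 27.5, 21.5 and 22.4 CPM in the wildtype libraries, 79.7, 77.0 and 102 CPM in mdx vehicle and 105, 107 and 70.2 CPM in mdx GTx-026 libraries. Every mdx library lay above every wildtype library, as was so for 4.51 percent of all genes. The share of all records that did so was not computed. In a fit over 46007 records the log2 fold change was 1.81 (adjusted p = 0.0103) in mdx vehicle against wildtype, 1.92 (adjusted p = 0.00292) in mdx GTx-026 against wildtype and 1.87 (adjusted p = 0.00191) for both mdx groups, where the percent of records called was 0.28, 1.19 and 1.3. It was 0.11 in mdx GTx-026 against mdx vehicle (adjusted p = 1.0). For both mdx groups and for mdx GTx-026 against wildtype it passed in all 16 settings tried, and for mdx vehicle against wildtype in 13 of 16. That last call was lost without the wildtype libraries 2 (adjusted p = 0.0665) or 3 (0.066) and without the mdx vehicle library 3 (0.0536). The record was picked out after its values were seen.

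The other 2 Eno1 records had log2 fold changes of -0.22 and -0.36 for both mdx groups (adjusted p of 0.575 and 0.365). The first of them was at 62.0, 49.3 and 53.5 CPM in the wildtype libraries, 44.6, 38.2 and 50.9 CPM in mdx vehicle and 52.0, 57.8 and 40.2 CPM in mdx GTx-026 libraries. The sum over the 3 records thus had a log2 fold change of 0.43 with an SE of 0.16 for both mdx groups and did not pass (adjusted p = 0.244). Without the third record that value was -0.29 (adjusted p = 0.418), and with a gene's highest record in place of its sum it was 1.88 (adjusted p = 0.00174).

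Eno1b, a gene on chromosome 18 that is near-identical to Eno1 and is not in the set, has 1 record of its own and rose as well. It was at 24.2, 17.9 and 16.4 CPM in the wildtype libraries, 39.6, 43.4 and 52.6 CPM in mdx vehicle and 53.4, 50.6 and 39.1 CPM in mdx GTx-026 libraries, with no overlap between mdx and wildtype, as was so in the higher direction for 4.51 percent of all genes. Its log2 fold change was 1.22 with an SE of 0.16 for both mdx groups (adjusted p = 0.00865), 1.18 in mdx vehicle against wildtype (adjusted p = 0.0377) and 1.25 in mdx GTx-026 against wildtype (adjusted p = 0.0151). For both mdx groups the call was lost without the wildtype libraries 2 (adjusted p = 0.0553) or 3 (0.0744). For mdx vehicle against wildtype it held without the wildtype library 1 and without the mdx vehicle library 1, and was lost without each of the other 7, at adjusted p of up to 0.220. For mdx GTx-026 against wildtype it was lost without the wildtype libraries 2 (0.071) or 3 (0.0806) and without the mdx GTx-026 libraries 1 (0.0715) or 2 (0.0647). Of the 50-base words of the longest Eno1 coding transcript 72.2% also occur in transcripts of other genes, Eno1b foremost. The values of Eno1 and Eno1b are therefore uncertain, and which locus gave the reads of the third record was not tested.

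**Figure D4:**
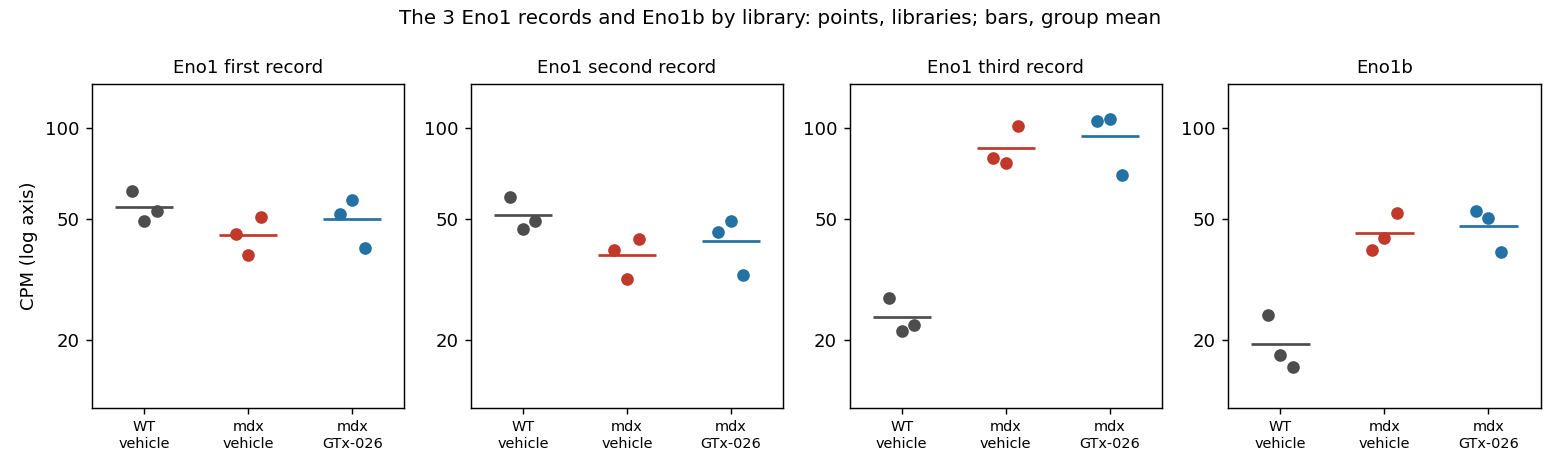
CPM (log axis, the same in all panels) of the 3 Eno1 records and of Eno1b in each library (points) with group means (bars). The third Eno1 record and Eno1b lie higher in all 6 mdx libraries than in wildtype, and the first and second Eno1 records overlap between groups.

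Lactate dehydrogenase turns pyruvate into lactate, with the A subunit common in fast fibres and the B subunit in heart and oxidative fibres. Ldha was steady, with a highest value 1.49 times the lowest over the 9 libraries, the narrowest range of the 32 genes. Ldhb had the widest range, with a highest value 23.1 times the lowest. It was at 106, 314 and 358 CPM in the wildtype libraries, 15.5, 211 and 151 CPM in mdx vehicle and 37.0, 139 and 310 CPM in mdx GTx-026 libraries, and all groups overlapped. Its log2 fold change was -1.51 with an SE of 1.01 in mdx vehicle against wildtype (adjusted p = 0.556) and -1.23 with an SE of 0.88 for both mdx groups (adjusted p = 0.560). The sum of 10 slow-fibre markers in the same libraries was 1235, 11430 and 3887 CPM in the wildtype libraries, 422, 9500 and 6833 CPM in mdx vehicle and 1075, 2477 and 15100 CPM in mdx GTx-026. Within each group the library lowest in these markers was also the lowest in Ldhb. The part of slow fibres in the Ldhb values was not tested.

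Slc16a3 encodes MCT4, the transporter through which fast fibres release lactate. It was at 130, 173 and 210 CPM in the wildtype libraries, 149, 238 and 229 CPM in mdx vehicle and 343, 273 and 208 CPM in mdx GTx-026 libraries. The groups overlapped, with 2 of 3 libraries of each mdx group above all wildtype libraries. The log2 fold change was 0.26 with an SE of 0.26 in mdx vehicle against wildtype (adjusted p = 0.689), 0.42 with an SE of 0.26 in mdx GTx-026 against mdx vehicle (adjusted p = 1.0), 0.68 with an SE of 0.26 in mdx GTx-026 against wildtype (adjusted p = 0.306) and 0.47 with an SE of 0.22 for both mdx groups (adjusted p = 0.358).

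Glycogen is primed by glycogenin (Gyg), extended by Gys1 from the UDP-glucose that Ugp2 makes, branched by Gbe1, and broken down by phosphorylase, which phosphorylase kinase (Phka1, Phkb and Phkg1 among its subunits) switches on. No gene of this group passed the test in any comparison. Gyg was at 304, 479 and 420 CPM in the wildtype libraries, 239, 346 and 269 CPM in mdx vehicle and 277, 271 and 333 CPM in mdx GTx-026 libraries. Only the wildtype library 1 lay within the mdx range. For Gyg the log2 fold change was -0.49 with an SE of 0.21 in mdx vehicle against wildtype (adjusted p = 0.386) and -0.46 with an SE of 0.18 for both mdx groups (adjusted p = 0.270).

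Gys1 was at 469, 505 and 608 CPM in the wildtype libraries, 277, 493 and 479 CPM in mdx vehicle and 551, 489 and 687 CPM in mdx GTx-026 libraries, with overlap throughout. For Gys1 the log2 fold change was -0.38 with an SE of 0.25 in mdx vehicle against wildtype (adjusted p = 0.548) and 0.50 with an SE of 0.25 in mdx GTx-026 against mdx vehicle (adjusted p = 1.0). Gbe1 was at 42.2 to 46.1 CPM in wildtype and from 20.7 CPM in mdx vehicle library 1 to 89.7 CPM in mdx GTx-026 library 3. Ugp2 was at 396 to 660 CPM in wildtype and 244 to 619 CPM in the mdx libraries.

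Pygm, with 1 record, was the most abundant gene of the set per kb by highest record. Summed over records, Aldoa (9 records) and Gapdh (5 records) were higher, with wildtype means of 19600 and 8546 CPM beside 8233 CPM for Pygm. Pygm was at 7383, 8464 and 8852 CPM in the wildtype libraries, 5139, 7833 and 5668 CPM in mdx vehicle and 9086, 5606 and 5036 CPM in mdx GTx-026 libraries. Of the 6 mdx libraries 4 lay below all wildtype libraries and 1 lay above them. For Pygm the log2 fold change was -0.43 with an SE of 0.40 in mdx vehicle against wildtype (adjusted p = 0.672) and -0.40 with an SE of 0.35 for both mdx groups (adjusted p = 0.644). Phkg1, the catalytic subunit of phosphorylase kinase in muscle, was at 529, 646 and 675 CPM in the wildtype libraries, 497, 546 and 435 CPM in mdx vehicle and 647, 459 and 302 CPM in mdx GTx-026 libraries, with a log2 fold change of -0.39 and an SE of 0.23 for both mdx groups (adjusted p = 0.463). Phka1 ranged from 510 to 855 CPM and Phkb from 282 to 473 CPM over the 9 libraries. The brain phosphorylase Pygb ranged from 9.71 to 23.2 CPM, with both extremes in wildtype.

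The balance within sister pairs was taken as the log2 ratio of muscle to other form in each library. Of 9 pairs 8 were measured, Aldoa having no measured partner. In 7 of the 8 the mean log2 ratio was lower over both mdx groups than in wildtype. The exception was Ldha to Ldhb, with a difference of 1.22 (exact permutation p = 0.286). Since Ldhb belongs to heart and oxidative fibres, that pair does not set a muscle form against a ubiquitous form. Of the 7, Slc2a4 to Slc2a1 differed by only -0.01, and Eno3 to Eno1 turned to 0.09 without the third Eno1 record. The pairs are not independent, since Pfkm to Pfkl and Pfkm to Pfkp share Pfkm. The p-values here are two-sided, unadjusted over the 8 pairs, and come from the 84 ways to choose 3 of 9 libraries, and 3 libraries against 3 could not go below 0.1.

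The Eno3 to Eno1 ratio was 5.26, 5.74 and 5.90 in wildtype, 4.78, 5.56 and 4.70 in mdx vehicle and 5.25, 4.84 and 4.88 in mdx GTx-026 libraries. All mdx GTx-026 libraries lay below wildtype, the closest only just, and the mdx vehicle library 2 lay within the wildtype range. The difference of both mdx groups from wildtype was -0.63 (exact permutation p = 0.0476). It stayed under 0.05 without the wildtype library 1 (exact permutation p = 0.0357) or the mdx vehicle library 2 (0.0179), and lay above 0.05 without any of the other 7, at 0.0714 without the wildtype library 2, 0.107 without the wildtype library 3 and 0.0536 without each of the remaining 5 mdx libraries. This difference rested on the third Eno1 record: without it the value was 0.09 (exact permutation p = 0.75).

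The Hk2 to Hk1 ratio was 4.36, 5.46 and 5.32 in wildtype, 3.01, 5.07 and 3.53 in mdx vehicle and 4.03, 4.29 and 4.26 in mdx GTx-026 libraries. All mdx GTx-026 libraries lay below all wildtype libraries, and the mdx vehicle library 2 did not. The difference of both mdx groups from wildtype was -1.02 (exact permutation p = 0.0714), and without the mdx vehicle library 2 the Hk2/Hk1 difference was -1.23 (exact permutation p = 0.0179). Without any 1 of the other 8 libraries the exact permutation p was 0.0714 to 0.143.

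The other differences of both mdx groups from wildtype were -0.43 for Pfkm to Pfkl, -0.52 for Pfkm to Pfkp, -0.58 for Pgam2 to Pgam1, -0.49 for Pygm to Pygb and -0.01 for Slc2a4 to Slc2a1, with exact permutation p from 0.214 to 1.0. The Slc2a4 to Slc2a1 difference changed sign between settings. The Pgam2 to Pgam1 ratio was close in the wildtype libraries, at 6.02, 6.33 and 6.31, and spread from 4.91 to 6.75 in the mdx libraries. No pair separated mdx vehicle from wildtype or mdx GTx-026 from mdx vehicle without overlap.

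**Figure D5:**
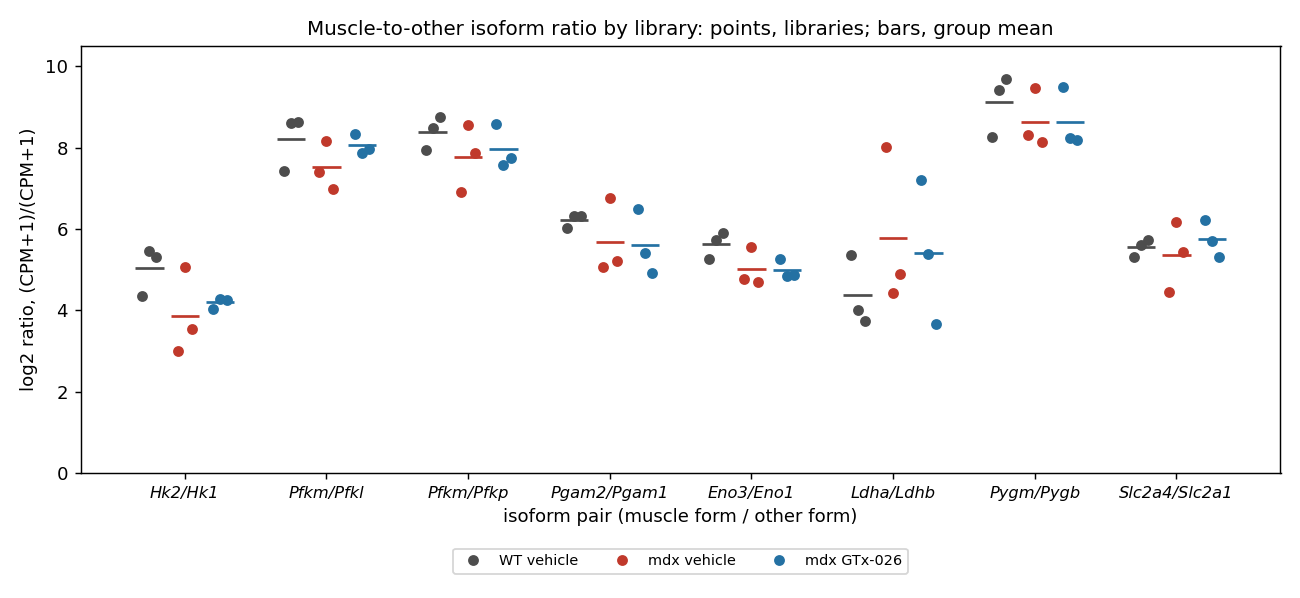
Log2 ratio of the muscle form to the other form, (CPM + 1) over (CPM + 1), for 8 pairs (x axis) in each library (points), with group means (bars). The Hk2 to Hk1 and Eno3 to Eno1 ratios of the 3 mdx GTx-026 libraries lie below all wildtype libraries, and the other pairs overlap between groups.

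A wider list of 73 other genes of glucose and glycogen handling had 61 measured. In mdx vehicle against wildtype and in mdx GTx-026 against mdx vehicle none passed, beside 0.338 and 0.013 percent of all genes called. In each of the other comparisons 1 gene passed and was lower, beside 1.48 percent of all genes called in mdx GTx-026 against wildtype and 1.59 percent in both mdx groups against wildtype. That gene was Tbc1d4, which encodes AS160, the Rab GTPase activator that holds GLUT4 inside the fibre until insulin or contraction acts on it. It was at 57.4, 53.9 and 51.8 CPM in the wildtype libraries, 38.9, 36.6 and 32.8 CPM in mdx vehicle and 24.3, 28.8 and 30.8 CPM in mdx GTx-026 libraries. The 3 groups did not overlap, with wildtype highest and mdx GTx-026 lowest. Of all genes, 4.27 percent lay lower in every mdx library than in wildtype, and 3.13 percent lay lower in every mdx GTx-026 library than in mdx vehicle. Its log2 fold change was -0.94 in mdx GTx-026 against wildtype (adjusted p = 0.0115), -0.76 for both mdx groups (adjusted p = 0.0143), -0.58 in mdx vehicle against wildtype (adjusted p = 0.139) and -0.36 in mdx GTx-026 against mdx vehicle (adjusted p = 1.0). The gene lies at chr14:101442360-101609191 on the minus strand (GRCm38).

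The Tbc1d4 calls depended on the scaling and on the records. Under the authors' deposited scaling the adjusted p was 0.109 in mdx GTx-026 against wildtype and 0.152 for both mdx groups, and with the highest record alone 0.127 and 0.217. In mdx GTx-026 against wildtype the call was lost without the wildtype libraries 2 (0.0566) or 3 (0.0557) and without the mdx GTx-026 library 1 (0.0544). For both mdx groups it was lost without any 1 wildtype library (0.0515, 0.0777 and 0.0865 without libraries 1, 2 and 3). The log2 fold change stayed between -1.01 and -0.63 in the first comparison and between -0.79 and -0.42 in the second.

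Among the other genes of the wider list, Gpd2, the mitochondrial glycerol 3-phosphate dehydrogenase that pairs with Gpd1 in a redox shuttle, was at 214, 326 and 314 CPM in the wildtype libraries, 179, 210 and 146 CPM in mdx vehicle and 180, 117 and 98.5 CPM in mdx GTx-026 libraries. All mdx libraries lay below all wildtype libraries, as was so for 4.27 percent of all genes. Against wildtype the log2 fold change was -0.89 for both mdx groups (adjusted p = 0.0853) and -1.13 in mdx GTx-026 against wildtype (adjusted p = 0.0689). Slc2a3, the transporter GLUT3 of neurons and leukocytes, was at 1.04, 0.581 and 0.546 CPM in the wildtype libraries, 2.97, 0.708 and 1.07 CPM in mdx vehicle and 3.49, 3.52 and 2.44 CPM in mdx GTx-026 libraries. All mdx GTx-026 libraries lay above wildtype, as was so for 11.5 percent of all genes, with a log2 fold change of 1.27 on the log2(CPM + 1) scale (adjusted p = 0.0684). Macrophage marker sums were also higher in all mdx GTx-026 libraries than in wildtype, as given above, and their part in the Slc2a3 values was not tested.

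Ppp1r3c, a subunit that brings protein phosphatase 1 to glycogen, was at 89.8, 310 and 319 CPM in the wildtype libraries, 62.3, 267 and 206 CPM in mdx vehicle and 471, 492 and 188 CPM in mdx GTx-026 libraries. The groups overlapped through the mdx GTx-026 library 3, and the log2 fold change against mdx vehicle was 1.21 (adjusted p = 1.0). The mutase Pgm2, the fructose bisphosphatase Fbp2, the pyruvate carrier Mpc1, the monocarboxylate transporter Slc16a1, Txnip and the liver phosphorylase Pygl did not pass either, and each mdx group overlapped wildtype. The phosphatase subunit Ppp1r3a did not pass (adjusted p = 0.335 in mdx GTx-026 against wildtype), with 171 to 218 CPM in wildtype, 132 to 185 CPM in mdx vehicle and 117 to 148 CPM in mdx GTx-026, so that every mdx GTx-026 library lay below wildtype, as was so for 9.23 percent of all genes. The neuronal enolase Eno2 did not pass (adjusted p = 0.785), with 0.509 to 0.866 CPM in wildtype, 0.531 to 2.57 CPM in mdx vehicle and 0.950 to 1.21 CPM in mdx GTx-026. The last group lay above all wildtype libraries, as was so for 11.5 percent of all genes, at levels near 1 CPM. The pyruvate dehydrogenase kinase Pdk4 was at 621, 164 and 238 CPM in the wildtype libraries, 88.1, 423 and 122 CPM in mdx vehicle and 251, 263 and 137 CPM in mdx GTx-026 libraries, a wide spread within each group.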

How the data were processed

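Polyadenylated RNA was sequenced on an Ion Torrent Proton, per the labels' protocols. The build GRCm38.p3 and DESeq2 1.6.3, HTSeq 0.6.1p1, SAMtools 0.1.19, Bowtie2 2.2.4 and TopHat2 2.0.13 are named in the submitters' processing notes, without role or order. The deposited signal is the authors' scaled read number for each of 46442 records, in whole multiples of 1 step per library to within 0.1 read. The authors' ratio and p-value columns were not used. Columns name a group and a number, so each was assigned to its group only.

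Records above 0 in all 9 libraries were summed per symbol (15372 genes), rescaled by an unweighted trimmed mean of log ratios (30% trimmed on the ratio, 5% on the level) and given as CPM. Records of a gene can share reads, so sums can count a read more than once. limma 3.58.1 (R 4.3.3) with trended prior variance was fitted to log2(CPM + 1), which understates changes of low genes, on all 9 libraries together, so each p-value rests also on groups outside its comparison. P-values were two-sided and Benjamini-Hochberg adjusted over all tested genes, with a threshold of 0.05. The script was tested on simulated data. The 20 alternative settings, 2 of them added after the data were seen, are in the closing section. Promoters came from RefSeq tables, gene positions from GENCODE M21. All genes of the set were named, with genes of the wider list by a rule naming 14 of them and any past the threshold; 1 item is not reported here. The members and lists were chosen with earlier results of these data known.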

Additional observations from a re-analysis of the deposited data

How the results depend on the processing

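No paired analysis was possible because the columns carry a group and a number that ties no library to an animal, litter or day. The planned edgeR test was not run, because the deposited values were not accepted as whole reads. A fit of only the compared groups is the same as the one reported for both mdx groups against wildtype, which uses all 9 libraries. With 3 libraries a group and 1 left out, the remaining spread comes from 8 libraries. Over all alternatives, 867 values of single genes kept their direction and side of the threshold, 38 no longer passed, 22 newly passed and 8 changed sign. Of counts and pairs, 200 values kept theirs, 61 counts moved by over 1.5 times, 8 values no longer passed, 1 newly passed and 9 changed sign. The cause of the changes below was not tested.

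Members called numbered 0 in mdx vehicle against wildtype (A), 0 in mdx GTx-026 against mdx vehicle (B), 0 in mdx GTx-026 against wildtype (C) and 1 in both mdx groups against wildtype (D). With limma library weights the numbers were 1 in A, 2 in C and 4 in D. With only the compared groups C had 1. With the highest record per symbol A had 1, C had 1 and D had 2. D had 0 under the authors' deposited scaling, with a pseudocount of 5, with an untrended prior variance and without the last of the 3 Eno1 records. Leaving out single libraries gave 0 to 1 in C and 0 to 1 in D.

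All genes called numbered 52, 2, 227 and 244 in A, B, C and D. With all records of a symbol they were 332, 96, 509 and 624, and with limma library weights 295, 4, 861 and 1379. With only the compared groups they were 5, 1 and 421 in A, B and C. In B, 4 genes were called under the authors' deposited scaling and 1 with a pseudocount of 5. Leaving out single libraries gave 5 to 93, 0 to 2, 45 to 368 and 39 to 386.

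For the isoform pairs, Eno3 to Eno1 was -0.62 (exact permutation p = 0.0595) with a pseudocount of 5, 0.09 without the last Eno1 record, -2.07 with the highest record, and -0.82 to -0.5 over single libraries left out (exact permutation p of 0.0179 to 0.107). Slc2a4 to Slc2a1 was 0.00 under the authors' deposited scaling, 0.01 with a pseudocount of 0.1, 0.09 with the highest record, and -0.14 to 0.22 over single libraries left out. Hk2 to Hk1 was -1.36 to -0.81 over single libraries left out (exact permutation p of 0.0179 to 0.143).

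For single genes, Pfkfb3 in mdx GTx-026 against mdx vehicle was 0.19 with library weights, 0.01 with the highest record, and -0.34 to 0.30 over single libraries left out. Hk1 in that comparison was -0.06 without the mdx vehicle library 2 and up to 0.57 without another. Without that record, Eno1 was -0.37, -0.22 and -0.29 in mdx vehicle, mdx GTx-026 and both mdx groups against wildtype. Genes near 1 CPM, such as Slc2a3, rest on the pseudocount: its log2 fold change in mdx GTx-026 against wildtype ran from 0.51 to 2.01.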
